A study of Homo sapiens with 5 samples.

Results

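The ALDH1A1 and TM4SF4 expressing nuclei are the 1328 of 6557 nuclei (20.3%, 95% exact binomial interval 19.3 to 21.2%) in which these 2 genes together led 6 pairs of marker genes. For each pair, its share of all unique molecular identifiers (UMIs, the tags that mark single RNA molecules) in a nucleus was divided by the 98th percentile of that share over all 6557 nuclei. A nucleus was a member when its ALDH1A1 and TM4SF4 value was the highest of the 6, at least 0.2, and at least 2 times the second highest. The same cutoffs gave 233 of 1286 nuclei (18.1%, 16.05 to 20.33%) in the 20% portion of the material described below. The nuclei came from 5 human lung adenocarcinoma cell lines, A549, HCC827, H838, H1975 and H2228, which were cultured separately in serum-containing medium, mixed and profiled with the 10x Multiome assay, which reads RNA and open chromatin (ATAC) from 1 nucleus. After droplet capture the material was divided into an 80% and a 20% portion, each with 1 RNA library and 1 ATAC library, and the 20% portion was also read as full-length cDNA. The labels name no treatment and assign no nucleus to a line, so the groups are called here by their marker genes. With 1 library of each kind per portion no test between groups was possible: intervals are exact Poisson or binomial ones and cover counting error only.

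ALDH1A1 is a cytosolic dehydrogenase that oxidises retinaldehyde to retinoic acid and also clears aldehydes formed by lipid peroxidation. It is widely used as a marker of progenitor-like and drug-tolerant tumour cells. TM4SF4 is a small membrane protein with 4 transmembrane segments, found mainly in liver, gut and pancreas. Several genes described below are targets of NRF2, a transcription factor that binds antioxidant response elements and switches on detoxifying enzymes, and lung adenocarcinomas that lose the NRF2 inhibitor KEAP1 keep it active. Others belong to the programme of HNF4A and the FOXA factors, which specifies liver and gut epithelium.

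The members were shallower than the other groups. Their median was 9110 UMIs per nucleus in the 80% portion, against medians of 11938.5 to 16266 in the other 5 groups. In the 20% portion it was 6971 UMIs, against 9425 to 12699. Thinned to 1000 UMIs each, members held a median of 769 genes, inside the range of the other groups' medians (755 to 788). Their median of 7310 ATAC counts in peaks lay within the range of the other groups (6581 to 11540). In all, the members contributed 12920482 of the 95455518 UMIs and 10089528 of the 63920767 ATAC counts of the 80% portion. Scrublet called 22 members (1.66%) doublets, against 2.26% to 6.42% in the other 5 groups and 16.5% of the 1397 nuclei that met no rule. The 2 portions shared 159 cell barcodes, of which 28 were members in the 80% portion and 26 in the 20% portion, and these were left out of the sums of the 20% portion.

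The panel value of the members, which chose them and is given as a description, had a median of 0.715 and ran from 0.201 to 1.96. Only 12 members lay between 0.2 and 0.3, and 10 nuclei with this panel highest lay just outside, between 0.1 and 0.2. The second condition was the more crowded edge: 39 members were under 2.5 times their second value, and 69 nuclei fell outside with ratios of 1.5 to 2. In all, 133 nuclei failed on the second panel alone, and 58 of them (43.6%) were doublet calls.

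**Figure D1:**
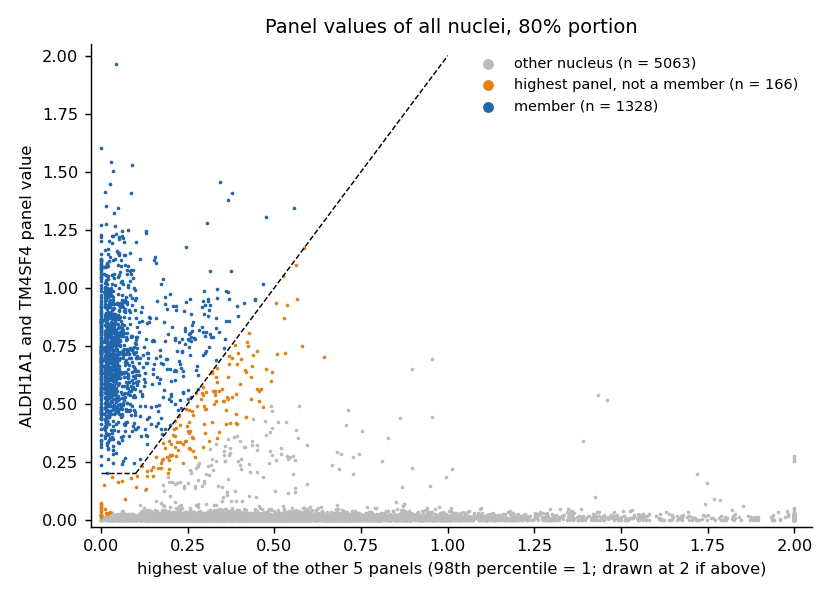
Each point is 1 nucleus of the 80% portion, with its ALDH1A1 and TM4SF4 panel value on the y axis and the highest of the other 5 panel values on the x axis (1 is the 98th percentile, x values above 2 drawn at 2). The dashed line is the membership rule, and the 1328 members form a column at low x, of which 204 had a second value of 0.

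The ATAC counts of the same nuclei, which the rule did not use, gave the members as a group of their own. Each nucleus was placed among its 20 nearest neighbours by peak counts alone. On average 91.7% of a member's neighbours were members (median 95%), where members made up 20.3% of all nuclei. Only 0.723% of the neighbours belonged to another marker group and 7.61% were nuclei without a group. In the other 5 groups the average share of member neighbours was 0.180% to 0.889%. The tenth of members with the fewest ATAC counts (133 nuclei, median 1659) had 92.9% member neighbours, against 91.5% for the deeper ones. Of the 133 nuclei that missed only the second condition, 90 had mostly member neighbours, but of the 33 that missed the floor of 0.2 only 5 did. Across peaks, the summed log profile of the members correlated most with that of the LINC02055 and AC069277.1 group (r = 0.682, lowest other 0.537). Across genes all 5 groups lay between 0.775 and 0.790. Such correlations describe 1 library and shared depth, and carry no test.

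ALDH1A1 stood at 5676 counts per 1000000 UMIs (CPM, interval 5635 to 5717) in the members of the 80% portion. In the other 5 groups of that library it stood between 87.7 CPM, in the EGFR and AC090578.1 group, and 157 CPM, in the TAGLN and MGP group. In the 20% portion the members had 5139 CPM, and the highest other group 276.5. These UMIs chose the members, so the gap of 36.2-fold to the highest other group is a description of the choice. TM4SF4 stood at 532 CPM (519.5 to 544.8) in the members, against 9.54 to 15.5 in the other groups, and at 430.1 against at most 25.6 in the 20% portion. Every member held ALDH1A1 UMIs, with a median of 51 and a minimum of 3. For TM4SF4 the median was 4 UMIs, and 11.2% of the members had none. In the other groups, which lie deeper, 63.0% to 70.7% of nuclei held an ALDH1A1 UMI, and 12.7% to 18.5% a TM4SF4 UMI. Each of these groups had a median of 1 ALDH1A1 UMI per nucleus and an upper quartile of 2. Their levels were 1.55% to 2.76% of the members' level for ALDH1A1 and 1.79% to 2.91% for TM4SF4, and single nuclei of these groups reached 45 to 92 ALDH1A1 UMIs. Free RNA was not measured here, and its part in these UMIs was not tested.

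The genome sequence of the start regions and of the accessible regions around ALDH1A1 is shown because these are the places where the members' own marker genes can be read at the chromatin level (RefSeq and genome build GRCh38; capitals mark motif letters found by a search of both strands). ALDH1A1 lies on chromosome 9 on the minus strand, and the 250 bases before its start (chr9:72953054-72953303) fell inside its start peak. TM4SF4 lies on chromosome 3 on the plus strand, and its 250 bases (chr3:149474447-149474696) lay between its nearest upstream peak and the start. GPX2, on the minus strand of chromosome 14 (chr14:64942746-64942995), is an NRF2 target shown for comparison. The 2 distal windows are the central 300 bases of peaks 30300 and 44261 bp upstream of the ALDH1A1 start (chr9:72983655-72983954 and chr9:72997612-72997911, plus strand).
ALDH1A1 promoter: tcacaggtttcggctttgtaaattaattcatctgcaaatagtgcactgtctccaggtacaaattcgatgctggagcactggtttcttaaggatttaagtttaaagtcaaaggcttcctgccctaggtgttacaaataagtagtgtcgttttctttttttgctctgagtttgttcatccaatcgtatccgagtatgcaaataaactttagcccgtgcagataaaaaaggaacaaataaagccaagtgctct
TM4SF4 promoter: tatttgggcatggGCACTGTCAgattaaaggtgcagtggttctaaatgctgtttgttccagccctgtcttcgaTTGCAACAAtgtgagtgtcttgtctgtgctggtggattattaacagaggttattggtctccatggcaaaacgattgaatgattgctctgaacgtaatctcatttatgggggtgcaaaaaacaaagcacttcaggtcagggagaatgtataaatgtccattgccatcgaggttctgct
GPX2 promoter: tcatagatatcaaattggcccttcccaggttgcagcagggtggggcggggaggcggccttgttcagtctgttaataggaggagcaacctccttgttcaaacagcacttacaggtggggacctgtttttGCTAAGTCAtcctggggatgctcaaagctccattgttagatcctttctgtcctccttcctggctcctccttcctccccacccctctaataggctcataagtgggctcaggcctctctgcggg
ALDH1A1 peak 30300 bp upstream: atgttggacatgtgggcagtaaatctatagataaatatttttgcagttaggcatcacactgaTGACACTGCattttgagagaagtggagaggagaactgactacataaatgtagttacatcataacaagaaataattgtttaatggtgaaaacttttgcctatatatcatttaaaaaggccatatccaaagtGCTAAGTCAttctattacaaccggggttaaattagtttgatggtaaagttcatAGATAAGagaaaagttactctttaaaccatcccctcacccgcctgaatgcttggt
ALDH1A1 peak 44261 bp upstream: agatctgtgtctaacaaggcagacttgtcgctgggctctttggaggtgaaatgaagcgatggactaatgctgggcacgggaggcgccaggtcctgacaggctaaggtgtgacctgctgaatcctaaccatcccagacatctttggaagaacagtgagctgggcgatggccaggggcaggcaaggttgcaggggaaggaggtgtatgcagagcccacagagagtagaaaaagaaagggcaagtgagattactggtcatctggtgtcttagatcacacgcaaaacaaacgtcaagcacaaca
The motifs searched were the antioxidant response element (TGACNNNGC), AP-1 (TGANTCA), HNF1 (GTTAAT followed after any 2 bases by TTAA), FOXA (TGTTTAC), the GATA factors (with the letters AGATAAG), CEBP (TTGCNNCAA), TEAD (GGAATG), the E-box (CACGTG) and CTCF (CCAC followed after any base by AGG, and after another base by GGC), of which the first 2 can overlap. None of these letters was found in the ALDH1A1 promoter window. The TM4SF4 window held GCACTGTCA, the reverse complement form of the antioxidant letters, and TTGCAACAA, a CEBP match. The GPX2 window held GCTAAGTCA, again the antioxidant letters, 122 bases before its start. The windows of AKR1C1 and NR0B1, also NRF2 targets and not shown, held none of the letters searched. Antioxidant letters are common, with a match in 10.9% of the 35116 promoter windows of this length in RefSeq, and CEBP letters occur in 1.62%. The window 30300 bp upstream of ALDH1A1 held the antioxidant letters at 2 positions and 1 GATA match, and the window 44261 bp upstream held none. A window of the same length in a peak 34470 bp upstream, not shown, held none either. A match describes letters only.

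Of 16 ATAC peaks within 50 kb of the ALDH1A1 start, 14 had a higher value in the members than in every other group with no minimum applied, where 16.4% of all 158342 peaks had. The other two, at chr9:72977387-72978246 (2.38 CPM) and chr9:72978663-72979400 (3.67 CPM), were higher in the MEG3 and MEG8 group (8.05 and 5.33). Only 5 of the 16 passed the minimum of a mean of 2 CPM over the groups. Of these 4 were at least 2-fold above the highest other group, where 3.12% of all tested peaks were, but these 4 passed only through the members and so had to be higher. The start peak (chr9:72952770-72953615) had 10.3 ATAC CPM in the members and at most 1.93 in another group, with 10.0 in the members of the 20% portion, which rested on 17 counts, against at most 3.94. Larger values came from 3 peaks upstream of that start, which lie in introns of a longer ALDH1A1 transcript in GENCODE v44. The peak 30300 bp upstream (chr9:72983356-72984255) had 31.6 CPM (28.2 to 35.3) against at most 1.48, and 35.9 in the 20% portion. The peak 34470 bp upstream (chr9:72987526-72988490) had 15.9 against at most 0.39, and 17.1 in the 20% portion. The peak 44261 bp upstream (chr9:72997317-72998207) had 36.7 against at most 1.74, and 32.9 in the 20% portion. In both portions the members had the highest value at each of these 4. Among the members, the summed counts of the 16 peaks were 121 CPM (108 to 135) in the 332 members with the least ALDH1A1 RNA, and 161, 143 and 158 CPM in the next 3 sets of 332, so that only the lowest set stood apart from 2 of the others by its counting interval. The other 5 groups had 5.22 to 20.7 CPM over these peaks.

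Around TM4SF4, 3 of 17 peaks within 50 kb (17.6%) were higher in the members than in every other group with no minimum applied, a share near the 16.4% of all peaks. Of these 17, 11 were tested and 1 was above every other group by 2-fold (3.12% of all tested peaks were), a peak that ends 406 bp before the start (chr3:149473406-149474291). It had 46.3 CPM in the members and 6.07 to 19.3 in the other groups, and 42.3 against at most 27.01 in the 20% portion, where the gap was under 2-fold.

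Across all genes, 12533 reached a mean of 5 CPM over the groups, and 867 of them (6.92%) were at least 2-fold above the mean of the other 5 groups on the log2(CPM + 1) scale, 1700 (13.6%) at least 2-fold below it. A stricter count took the highest or lowest other group in place of the mean. By it 342 genes (2.73%) were above every other group and 221 (1.76%) below every other group, but only 87 were below with 5 CPM added in place of 1. The marker rule used these same RNA counts, so these counts describe the members and test nothing. The median gene was at a log2 ratio of −0.13 to the mean of the other groups. Of the genes tested, 252 reached the minimum only through the members and so had to be higher. With the minimum set on the mean of the other 5 groups alone, an alternative chosen after seeing the data, 691 of 12424 genes (5.56%) were higher and 1800 (14.5%) lower, with a median of −0.15, and 213 were above every other group. The gene lists below are counted with that second minimum, and their members that missed it are given by value only. The 20% portion was a library of other nuclei from the same capture: of the 338 genes above every other group that were also tested there, 291 (86.1%) were so again, and of the 212 below, 139 (65.6%) were. Of its own 12748 genes tested, 944 (7.41%) were higher and 1871 (14.7%) lower than the mean, 347 (2.72%) above every other group and 265 (2.08%) below.

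The 20 genes that stood farthest above the highest other group were chosen by that rank with panel genes left out. RBFOX3, the splicing factor of mature neurons, had 148.6 CPM in the members and at most 3.03 in another group, with 155 CPM in the 20% portion. NTRK3, the receptor of neurotrophin-3, had 214 CPM against at most 6.09, with 190 in the 20% portion. CPLX2, a complexin that controls vesicle fusion, had 183 against at most 4.97, and CACNA2D1, a calcium channel subunit, 247 against at most 6.39. The sialyltransferase ST6GAL2, mostly expressed in brain, had 310 CPM (0.698 to 6.503 in the other groups, 313 in the 20% portion). The adhesion molecule IGSF11 led the ranking, with 164 CPM against 1.08 to 2.33, a 70.6-fold difference (38.3 to 147), and 138 CPM in the 20% portion. CLDN2, a pore-forming claudin of leaky epithelia, had 149.3 CPM against at most 3.74, and ANXA13, an annexin of intestinal epithelium, 93.7 against at most 2.38. NTS, the gut and brain peptide neurotensin, had 479 CPM (9.55 to 18.4 in the others) in the 80% portion and 292 in the 20% portion. The sarcoglycan SGCD, the microtubule-binding DCDC2, GPRIN3, CNKSR2, FILIP1, the Y-linked UTY and USP9Y, and LINC02506, LINC02532, AADACL2-AS1 and AL445584.2 made up the rest. The choice fixed their gap in the 80% portion, and 19 of the 20, all but NTS, reached the minimum of 5 CPM only through the members. In the 20% portion, which the ranking did not use, all 20 were 2-fold above every other group, where 2.72% of all its genes and 86.1% of the 338 counted earlier were.

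**Figure D2:**
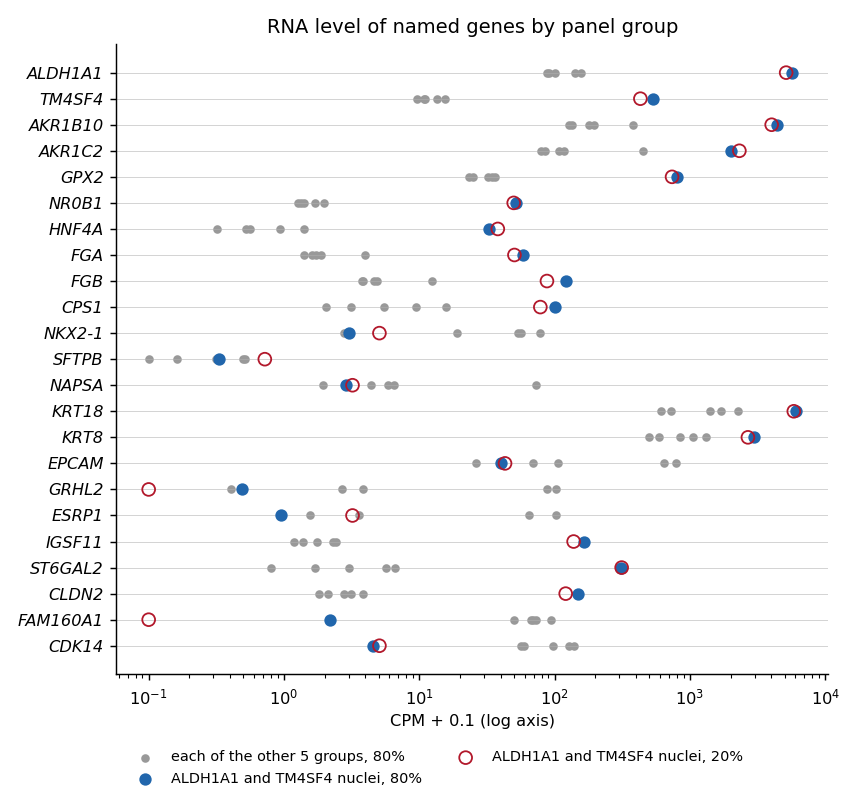
RNA level of 23 named genes in CPM plus 0.1 on a log axis, with the members of the 80% portion as filled blue points, the members of the 20% portion as open red circles and each of the other 5 groups of the 80% portion in grey. ALDH1A1, HNF4A and IGSF11 lie to the right of every grey point in both portions, while FAM160A1 and CDK14 lie to the left.

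Among 19 aldehyde dehydrogenases listed, 16 were counted, 5 were 2-fold higher than the mean of the other groups, where 5.56% of all genes were, and none was lower (14.5%), with a median log2 ratio of 0.55 against −0.15 for all genes. ALDH1A1, which the rule used, was 1 of the 5. ALDH3A1, which detoxifies aromatic and fatty aldehydes, had 955 CPM in the members, but the MEG3 and MEG8 group had 665.5 and the remaining groups 59.0 to 97.8. ALDH3A2 had 183 CPM against at most 85.4, and ALDH3B1 83.9 against at most 39.7. ALDH1A3, which like ALDH1A1 makes retinoic acid, was low in the members (10.1 CPM), and its highest level was 61.2 in the EGFR group.

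Of 30 retinoid genes listed, 14 were counted, 3 were higher (5.56% of all genes) and 2 lower (14.5%), with a median of −0.34. ALDH1A1, which the rule used, was 1 of the 3 higher. RARB, RBP4 and STRA6 passed only through the members. RARB, the retinoic acid receptor that is itself induced by retinoic acid, had 63.1 CPM against at most 4.93 in another group. The retinol carrier RBP4 had 68.9 against at most 7.49, its membrane receptor STRA6 21.9 against at most 7.35, and RARRES1, named for its induction by a retinoid, 75.7 against at most 21.4. DHRS3, which reduces retinaldehyde back to retinol, had 66.9 against at most 33.4. CRABP2, which carries retinoic acid to the nucleus, lay below every other group, at 13.3 CPM against 21.4 to 92.6.

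Of the 6 TM4SF genes listed, 5 were counted, and TM4SF4, which the rule used, was 1 of them. Of the other 4, 2 were higher (5.56% of all genes were) and 1 was lower (14.5%). TM4SF20 had 209.5 CPM against 5.59 to 10.4, with 230.0 in the 20% portion, and TM4SF1, common on carcinoma cells, had 1224 against 349 to 616. TM4SF19 was the lower one, at 18.3 CPM against up to 127. TM4SF5, of liver and gut, had 13.5 CPM against at most 0.83, but its mean over the groups was under the minimum and it was not counted.

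Of 38 NRF2 targets listed, 36 were counted, 19 were higher than the mean of the other groups, where 5.56% of all genes were, and 1 was lower (14.5%), with a median of 1.06. AKR1B10, an aldo-keto reductase that also reduces retinaldehyde, had 4430 CPM in the members, against 127 to 379 in the other groups, and 4016 in the 20% portion (11.7-fold over the highest other group, 11.4 to 11.9). GPX2, the glutathione peroxidase of gut epithelium, had 804.5 against 23.04 to 36.0, and 737 in the 20% portion. NR0B1, an orphan nuclear receptor that passed only through the members and was not counted, had 51.9 against 1.16 to 1.86, and 49.7 in the 20% portion. AKR1C2 had 2011 against 79.1 to 448, with 2318 in the 20% portion, and AKR1C3 2426 against at most 921. AKR1C1, AKR1C2 and AKR1C3 are nearly identical in sequence, so reads may be split between them and their separate values are uncertain. The exporter ABCC2 had 625 CPM against at most 273, and PGD, of the pentose phosphate pathway, 500 against at most 214.
Other textbook targets were shared with the MEG3 and MEG8 group. NQO1 had 1822 CPM in the members and 2222 in that group, and TXNRD1 1653 and 2080. The cystine transporter SLC7A11 had 477 CPM in the members against at most 330, under 2-fold. GCLC (196 CPM, highest other 379.5) and HMOX1 (43.7 CPM, highest other 108) were not highest in the members, and GSTM3 was the lower one, at 44.6 CPM against 395.5 in the LINC02055 group. Summed over the list and counted per nucleus, the members had a median of 294 UMIs of these genes per 10000, against 67.5 to 183 in the other groups.

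Of 22 genes of drug and hormone metabolism, 4 of which are also on the NRF2 list, 9 were counted, 2 were higher (5.56% of all genes) and 2 lower (14.5%), with a median of −0.52. Of the 6 counted that the NRF2 list does not hold, 1 was higher and 1 lower. With the minimum over all 6 groups, which let in 4 more through the members, 6 of 13 were higher (6.92% of all genes), 2 were lower (13.6%) and the median was 0.79. CYP24A1, which degrades vitamin D, had 927 CPM against at most 163 (5.69-fold, 5.46 to 5.94). CYP2S1, which passed only through the members, had 35.4 against at most 3.26.

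Of 32 liver and gut lineage genes listed, 12 were counted, 6 were higher (5.56% of all genes) and 1 was lower (14.5%), with a median of 1.61. HNF4A, FGA and FGG passed only through the members. The regulator HNF4A had 32.7 CPM against at most 1.30, with 37.9 in the 20% portion, a 25.2-fold gap whose counting interval (11.5 to 69.2) was wide. FOXA2 had 32.1 CPM against at most 13.98. All 3 fibrinogen chains, which hepatocytes secrete, were higher: FGA at 58.4 CPM against at most 3.89, FGB at 121 against at most 12.3 and FGG at 60.8 against at most 2.35. CPS1, the first enzyme of the urea cycle, had 101 CPM against at most 15.8. Hepatocyte products were not high throughout. ALB stood at 0.155 CPM and APOA1 at 0.310, which is 2 and 4 UMIs in 1328 nuclei, and SERPINA1 had 13.9 CPM, within the range of the other groups (10.9 to 89.98).

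Of the 21 genes of the lung lineage list, 9 were counted, 3 were higher (5.56% of all genes) and 5 lower (14.5%), with a median of −1.51. NKX2-1, the regulator of distal lung identity that is stained to diagnose lung adenocarcinoma, stood at 2.94 CPM, near the lowest of the other groups (2.68 to 77.3). Its targets NAPSA (2.79 CPM, others 1.83 to 72.8) and SFTPB (0.232 CPM) were low as well. No tested gene of this list was 2-fold below every other group. The higher genes were the airway mucins MUC5AC, at 544 CPM against 10.2 to 21.2 (25.7-fold, 21.9 to 30.4), and MUC5B, at 92.8 against at most 26.3, and the basal cell factor TP63, at 82.3 CPM against at most 57.3.

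Of 18 epithelial genes, all counted, 3 were higher and 11 lower (median −2.30), where 5.56% and 14.5% of all genes were. KRT18 had 6080 CPM against 609 to 2267, and KRT8 2958 against 500 to 1307, both above every other group. ELF3, an epithelial ETS factor, had 302 CPM against at most 197. Against these, the epithelial regulator GRHL2 stood at 0.387 CPM, where the highest other group had 102.5. The splicing factor ESRP1 stood at 0.851, where the highest other group had 102. None of the 18 genes was 2-fold below every other group (1.76% of all genes tested were), so these low levels were not particular to the members. The surface protein EPCAM had 40.2 CPM in the members and 25.95 to 787 in the other groups, and CDH1 (E-cadherin) 46.9 against 4.93 to 202. Of 18 mesenchymal genes listed, 15 were counted, 2 were higher and 8 lower (median −1.54). CDH2 (N-cadherin), which passed only through the members, had 53.3 CPM against at most 7.45 and S100A4 827.5 against at most 155 (5.33-fold). VIM, at 1385 CPM, lay within the range of the other groups (665 to 4310), and SPARC stood at 15.7 CPM. No tested gene of this list was 2-fold below every other group.

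The 10 genes that lay farthest below every other group had at least 50 CPM in all the other groups and were low here. FAM160A1 had 2.09 CPM in the members, against 50.1 to 94.5, and no UMI in the members of the 20% portion. CDK14, a kinase of the WNT pathway, had 4.41 against 56.1 to 138, with 4.97 in the 20% portion, and the growth factor PDGFC 7.66 against 56.1 to 174. CASP4, the sensor of bacterial lipopolysaccharide in the cytosol, had 14.4 against 51.4 to 89.9. RBMS3 (28.8 CPM, others 185 to 438), ARID5B (17.6, others 105 to 406), PALM2-AKAP2, PAM, RHOBTB3 and CPM (the carboxypeptidase gene, at 19.2) completed the list. All 10 were 2-fold below every other group in the 20% portion, which the ranking did not use and where 2.08% of all its genes and 65.6% of the 212 counted earlier were.

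The cell cycle, mitochondrial and stress lists were counted against the same shares of all genes, 5.56% higher and 14.5% lower. Of 43 S phase genes 1 was higher (BLM, a DNA helicase, at 50.7 CPM) and of 52 genes of G2 and mitosis 1 was higher (HJURP, at 123 CPM) and 1 lower (ANLN, at 133). The members' median of S phase UMIs was 27.9 per 10000, within the other groups' 14.4 to 37.1. None of 13 mitochondrially encoded RNAs passed 2-fold. Markers of other cell types were low: of 15 immune genes 6 had no UMI in the members, and the list summed to 96.3 CPM, against 103 to 678.5 in the other groups, with CD74 (43.4 CPM) the most abundant. The fibroblast list summed to 25.8 CPM against 27.5 to 409 and the endothelial list to 3.41 against 3.26 to 14.9. In the 20% portion the immune list summed to 101 CPM in the members, against 87.4 to 662 in the other groups. There the fibroblast list summed to 35.4 against 31.6 to 404 and the endothelial list to 3.73 against 1.86 to 19.7, so the members were not lowest in that portion. Of 15 genes of stress and nucleus preparation, 14 were counted, 2 were higher and 1 lower: ZFP36 (108 CPM, at most 34.9 elsewhere) and FOS (150 CPM, at most 66.5) were the higher, and JUN (81.2 CPM, 497.5 in its highest group) the lower. Their part in the results above was not tested.

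The start regions gave a second readout of the named genes. ATAC counts were summed over peaks within 1 kb of the start interval that the deposited feature table gives for a gene. This interval spans its transcript starts and covers much of some genes, so values of genes with distant starts are also given around the single transcript starts of GENCODE v44. Of 11927 genes tested, 137 (1.15%) were 2-fold above every other group and 151 (1.27%) below. Of the 20 genes leading by RNA, 17 had more ATAC counts per 1000000 in the members than in every other group with no minimum applied, where 30.5% of 12080 genes did. Of the 16 that reached the minimum 11 did so by 2-fold, but 5 of the 16 reached it only through the members. ST6GAL2 had 59.9 ATAC CPM at its start against at most 2.92, and CACNA2D1 37.3 against at most 4.03. SGCD had 92.6 against at most 4.57 over its long start interval, but 4.06 against at most 0.62 around single starts. GPRIN3 had 77.0 against at most 5.80 and around single starts 8.72 against at most 3.48, and RBFOX3 212 against at most 43.97 and around single starts 31.6 against at most 16.6, which is under 2-fold. Other genes of the 20 had no such gap. CLDN2 had 20.3 against 20.9 in the highest other group, NTS 0.99 against 0.67, and AADACL2-AS1 1.78 against 8.10. Over all 309 tested genes above every other group in RNA, of which 21 reached the ATAC minimum only through the members, 73 (23.6%) were above in start ATAC as well.
Of the NRF2 targets, AKR1B10 had 80.4 ATAC CPM at its start against at most 7.06 (85.3 in the 20% portion), GPX2 44.4 against at most 3.35 (43.5), NR0B1 35.2 against at most 7.05 and ALDH3A1 96.3 against at most 22.4. FGA had 10.2 against at most 0.67, while CPS1, with 38.1 against 24.1, was open in other groups too. HNF4A depended on the starts used, with 81.8 against 67.8 over its start interval and 14.9 against at most 2.10 around single starts. TM4SF20 was less open in the members (6.74) than in its highest group (29.2) despite its RNA. Of the keratins, KRT18 had 73.2 against 59.6 and KRT8 253 against 192. On the low side, GRHL2 had 1.49 where the other groups had 4.45 to 57.7, but 13.8 around single starts, where they had 13.5 to 84.1. Of the 10 genes lowest in RNA, 9 were lower at the start than in the lowest other group, where 9.57% of all genes were, and 3 of them by 2-fold: FAM160A1 at 20.7 (others 62.7 to 91.97), CASP4 at 0.99 (5.44 to 17.0) and ARID5B at 32.9 (75.4 to 346). The start of the carboxypeptidase gene, at 25.97, was within the range of the others (9.79 to 28.4).

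**Figure D3:**
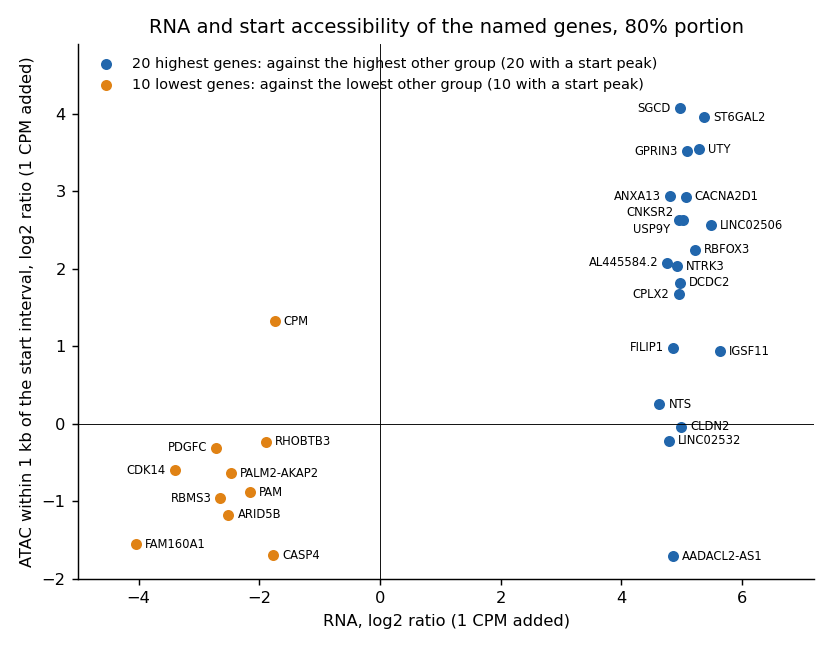
RNA ratio (x axis) against ATAC ratio within 1 kb of the start interval (y axis), both log2 with 1 CPM added, for the 20 highest genes against the highest other group (blue) and the 10 lowest genes against the lowest other group (orange), 80% portion. Most blue points lie in the upper right, AADACL2-AS1, LINC02532 and CLDN2 lie below 0 on the y axis, and 9 of the 10 orange points lie below 0.

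Of 88765 peaks with a mean of at least 2 CPM, 7636 (8.60%) were 2-fold above the mean of the other groups and 28430 (32.0%) below it. This split depended on the scaling: 21.2% of the calls were higher by total counts, 30.4% after TMM scaling (10930 higher, 24987 lower) and 32.1% after median-of-ratios scaling. Taking the most extreme other group, 2773 peaks (3.12%) were above every other group and 4361 (4.91%) below. With the minimum on the other 5 groups alone 1280 were above and 4412 below. The count below also moved with the pseudocount, from 627 with 5 CPM added to 9995 with 0.1. In the 20% portion 1454 of 2237 such higher peaks that were tested were again above every other group, and 1817 of 4028 lower ones (45.1%) below. Of all 79331 peaks tested in that portion 8615 (10.9%) were higher and 26921 (33.9%) lower than the mean, 2398 (3.02%) above every other group and 5143 (6.48%) below. Peaks above every other group lay within 1 kb of a start interval in 29.97% of cases, those below in 25.1%, and all tested peaks in 34.7%.

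The 5 peaks with the largest gap were chosen for it, and all 5 reached the minimum of 2 CPM only through the members, so that low values elsewhere follow from the choice. All 5 were also 2-fold above every other group in the 20% portion, which the ranking did not use and where 3.02% of all its tested peaks were. The top one (chr2:41827970-41828713) had 44.7 CPM in the members and at most 0.58 in another group, with 41.7 in the 20% portion. A peak on chromosome 7 (chr7:46512690-46513588) had 63.2 against at most 1.75, with 55.3 in the 20% portion. A peak at FGL1, a fibrinogen-like protein secreted by liver, had 77.7 CPM in the members. The others of the top 5 lay on chromosome 6 (32.5 CPM) and near SOX9-AS1 on chromosome 17 (57.3 CPM). The centres of the chromosome 2 and chromosome 7 peaks and of 2 peaks with the letters of HNF1 are shown because both the gaps and the motif counts below rest on such regions (300 bases each, plus strand, GRCh38: chr2:41828191-41828490, chr7:46512989-46513288, chr19:28997955-28998254 and chr2:43194243-43194542). Capitals mark any motif letters of the search.
Top peak on chromosome 2: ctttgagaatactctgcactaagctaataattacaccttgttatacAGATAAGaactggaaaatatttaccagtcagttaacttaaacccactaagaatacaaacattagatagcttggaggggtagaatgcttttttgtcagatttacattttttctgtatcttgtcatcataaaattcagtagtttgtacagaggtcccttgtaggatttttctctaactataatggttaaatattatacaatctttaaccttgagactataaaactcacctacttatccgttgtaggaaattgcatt
Top peak on chromosome 7: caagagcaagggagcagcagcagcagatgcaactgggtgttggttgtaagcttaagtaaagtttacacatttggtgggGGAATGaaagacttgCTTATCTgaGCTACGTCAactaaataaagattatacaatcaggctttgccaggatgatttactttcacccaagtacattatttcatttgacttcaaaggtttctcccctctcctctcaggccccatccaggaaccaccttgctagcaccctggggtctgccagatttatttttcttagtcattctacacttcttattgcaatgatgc
HNF1 peak on chromosome 19: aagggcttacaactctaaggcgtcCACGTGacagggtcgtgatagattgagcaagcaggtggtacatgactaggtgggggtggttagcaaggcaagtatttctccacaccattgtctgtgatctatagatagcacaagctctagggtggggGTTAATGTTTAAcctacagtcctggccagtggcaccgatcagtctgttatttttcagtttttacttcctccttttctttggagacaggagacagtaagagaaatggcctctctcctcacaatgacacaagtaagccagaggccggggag
HNF1 peak on chromosome 2: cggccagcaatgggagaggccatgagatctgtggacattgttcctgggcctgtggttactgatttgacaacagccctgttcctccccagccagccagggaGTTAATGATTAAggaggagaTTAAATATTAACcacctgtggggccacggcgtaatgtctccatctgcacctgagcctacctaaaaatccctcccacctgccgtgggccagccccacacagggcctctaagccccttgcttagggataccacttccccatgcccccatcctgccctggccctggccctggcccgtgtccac
The chromosome 19 peak (chr19:28997661-28998550), 215046 bp from the nearest coding start, had 32.8 CPM in the members and at most 3.04 in another group, and it too passed only through the members. The chromosome 2 peak (chr2:43194031-43194755), in the non-coding gene LINC02580, held the HNF1 letters at 2 positions and had 36.1 against at most 13.6.

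Motif shares were counted in the central 300 bases of each peak. HNF1 letters were rare, and of the 9 motifs theirs was the largest ratio, though not the largest difference, of the share in the peaks above every other group to that in all peaks: 50 of 2771 peaks above every other group held them (1.80%), against 154 of all 88742 (0.174%) and 2 of 4361 below every other group (0.0459%). FOXA letters were in 11.98%, 4.74% and 3.62% of these sets, and GATA letters in 6.10%, 3.34% and 3.67%. AP-1 letters ran the other way, with 24.6% of the peaks above, 35.3% of all and 59.5% of those below. The antioxidant letters, the element that NRF2 binds, were not more frequent in the peaks above every other group (14.8%) than in all peaks (17.0%) or in those below (19.2%). TEAD letters were in 22.7%, 21.3% and 28.0%, CEBP letters in 2.67%, 2.29% and 2.25%, the E-box in 4.22%, 5.77% and 4.61% and CTCF letters in 1.01%, 1.92% and 0.115%. Away from starts the order was the same for HNF1 (2.06%, 0.198% and 0.0306%), FOXA (12.5%, 5.32% and 3.52%) and AP-1 (27.5%, 41.8% and 63.1%). Many of the peaks above every other group reached the minimum only through the members, so the shares were counted again with the minimum on the other 5 groups alone, an alternative chosen after seeing the data. Of the 1279 peaks then above every other group 12 held HNF1 letters (0.938%), against 105 of all 90055 (0.117%). FOXA letters were in 10.3% and 4.55% of these 2 sets, GATA letters in 4.77% and 3.31%, AP-1 letters in 26.9% and 36.3%, the antioxidant letters in 15.95% and 17.1% and CTCF letters in 1.72% and 1.87%. The median GC content of the first 3 sets was 48.3%, 50.7% and 46.7%, and its part in these shares was not tested.

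**Figure D4:**
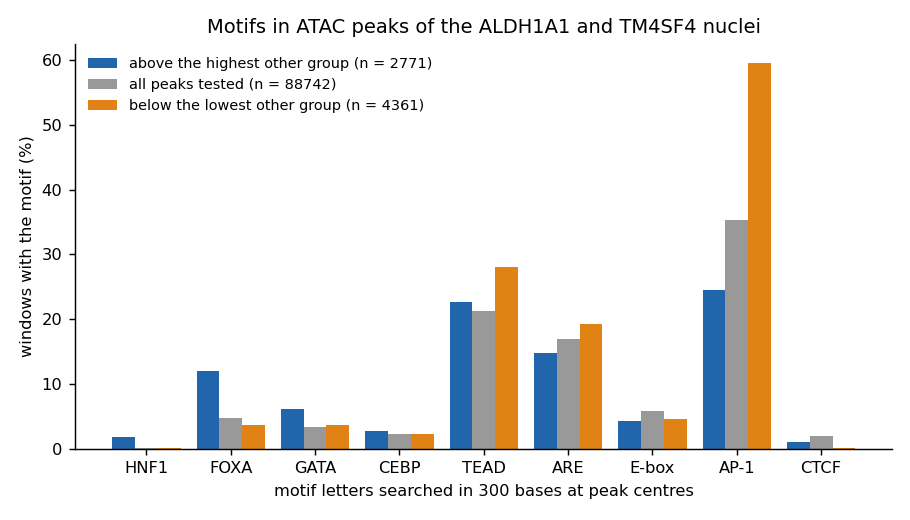
Percent of 300-base peak centres that hold each motif's letters (y axis) for 9 motifs (x axis), in peaks above every other group (blue), all peaks tested (grey) and peaks below every other group (orange); ARE is the antioxidant response element. HNF1 and FOXA bars are highest in blue and the AP-1 bar is highest in orange, at 59.5%.

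The members were not uniform. Of 9923 genes with at least 0.1 UMI per member, the residual variance had a median of 1.11. It was scaled by counting noise plus a term that grows with the squared mean. The 10 largest values belonged to NTS (34.6), MALAT1 (15.5), AGR2 (13.5), KRT81 (9.59), KRT18 (9.51), CPS1 (8.25) and 4 mitochondrially encoded RNAs. The markers themselves ranked lower, with TM4SF4 at rank 55 and ALDH1A1 at rank 70. ALDH1A1 had a median of 56.0 UMIs per 10000 (5th to 95th percentile 31.8 to 87.6) and 52.1 in the 20% portion. KRT18 had a median of 54.2 and the secretory protein disulfide isomerase AGR2 a median of 13.6 (1.83 to 55.2). NTS was concentrated in few nuclei. Only 32.9% of the members held an NTS UMI, against 15.3% to 21.9% in the other groups, but 189 members (14.2%) held at least 3, against at most 0.673% in any other group, and 1 nucleus held 250. CPS1 was alike: 18.3% of members held a UMI, within the 2.51% to 20.9% of the other groups, while 153 members (11.5%) held at least 3, against at most 0.741%. In the 20% portion 24.5% of members held an NTS UMI and 14.6% a CPS1 UMI.

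MUC5AC, which ranked next after these 10 and was chosen after its values were seen, had at least 3 UMIs in 720 members (54.2%) and 0 in 350. Its ATAC counts within 50 kb were 137 CPM (128 to 147) in the former and 104 (91.2 to 117) in the latter, against 54.0 to 70.6 in the other groups. Members with MUC5AC also sat closer to each other in the ATAC neighbour graph: 69.4% of the member neighbours of a nucleus with at least 3 UMIs had as many, against 30.04% of the member neighbours of a nucleus with none. The nuclei with at least 3 UMIs had slightly more ATAC counts (median 7673.5 against 6842.5), whose part was not tested. For NTS the same shares were 16.4% and 11.6%, and for CPS1 10.9% and 11.2%. The ATAC counts around NTS were 28.2 CPM (20.2 to 38.5) with at least 3 UMIs and 15.1 (12.3 to 18.3) with none. The other groups had 2.84 to 16.9 there, and the highest, the TAGLN and MGP group (12.5 to 22.2), lay above the members with none. Around CPS1 the counts were 55.2 (42.8 to 70.1) and 37.8 (33.7 to 42.3), against 16.5 to 25.1 in the other groups.

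The chromosomes took different shares of the members' counts. Of 23 chromosomes, 21 differed from the mean of the other groups in the same direction in RNA and ATAC of both portions, 9 higher and 12 lower, with 8 and X as the exceptions. A difference of any size counted, and both portions came from the same capture. Some log2 ratios were near 0, such as 0.005 for chromosome 13 (ATAC, 80% portion) and 0.005 for chromosome 19 (RNA, 20% portion). Chromosome 15 had log2 ratios of 0.46 (RNA) and 0.57 (ATAC) in the 80% portion and 0.45 and 0.54 in the 20% portion. Chromosome 17 had 0.23 and 0.51, and chromosome 2 had 0.19 and 0.22. Chromosome 4 had −0.15 and −0.36, chromosome 3 −0.19 and −0.33 and chromosome 1 −0.24 and −0.22. Chromosome 9, which holds ALDH1A1, had 0.33 in RNA but 0.02 in ATAC. Some of these values moved when the called genes and peaks were left out. That step removes features because of their own change, so it cannot show what the values rest on. Without them, in the 80% portion, chromosome 15 had 0.46 in RNA and 0.26 in ATAC, and chromosome 9 had 0.14 in RNA. Chromosome 19 had −0.10 in ATAC, against 0.23 with all peaks. Medians of genes and peaks in place of shares gave chromosome 15 0.54 in RNA and 0.49 in ATAC. By medians chromosome 9 had 0.08 in RNA, and chromosome 19 had 0.06 in ATAC but −0.29 in RNA (0.02 by share). The number of chromosomes with the same direction in all 4 libraries was 20 without the called features and 17 by medians. Over the 23 chromosomes the 2 readouts correlated at r = 0.803, a description over chromosomes of the same nuclei.

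**Figure D5:**
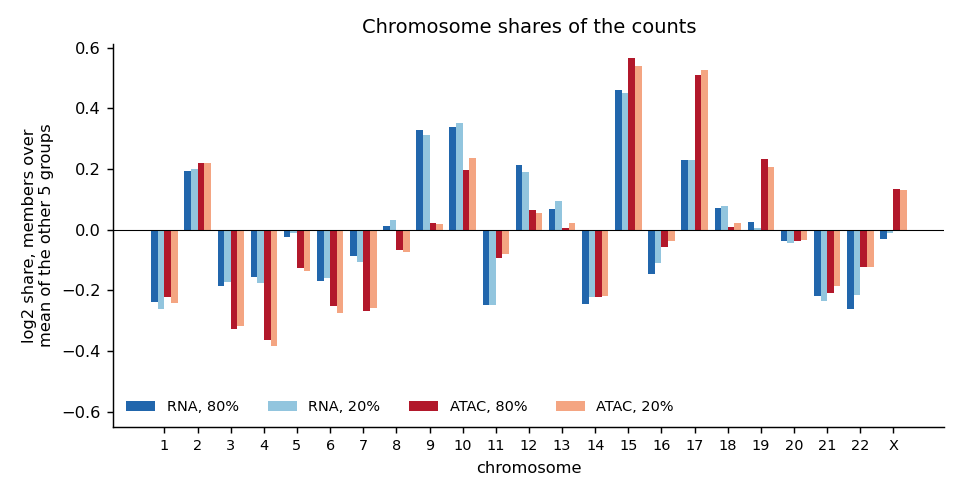
Log2 of each chromosome's share of the members' counts over the mean share of the other 5 groups (y axis) by chromosome (x axis), for RNA (blue) and ATAC (red) in the 80% portion (dark) and the 20% portion (light). Bars for chromosomes 15, 17, 10 and 2 are above 0 and those for 1, 3, 4 and 14 below 0 in all 4 libraries.

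The long reads of the 20% portion covered 220 of its 233 members. Their median was 19395.5 long-read counts per nucleus, against 25302.5 to 35043 in the other groups, or 2.66 per UMI, within the 2.56 to 2.69 of the others.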

How the data were processed

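RNA and ATAC were measured in nuclei of 5 mixed lung adenocarcinoma lines. The deposited counts are whole-number UMI counts per gene and ATAC counts per peak for each barcode, 1 matrix per portion, which per the file headers came from Cell Ranger ARC 2.0.0. The study's genome build was GRCh38 (hg38). Long-read counts per barcode were also deposited and are used only as depth. The combined matrix was not used. Whether an ATAC count is a fragment or a cut site was not given in the sources used here.

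Counts were read with Python 3.11.15 (numpy 2.4.6, scipy 1.17.1, pandas 2.3.3, scanpy 1.11.5, scikit-learn 1.9.0), summed over the nuclei of each marker group and scaled to counts per 1000000 (CPM). A gene (mean at least 5 CPM) or peak (mean at least 2 CPM) was called at a 2-fold ratio with 1 CPM added. With 1 library per group there was no test. All barcodes were kept, with no filter on depth, and doublets (Scrublet, expected rate 0.06) were marked, not removed. ATAC neighbours came from latent semantic indexing of peak counts. Ratios were checked on simulated data. Members and gene lists were chosen with earlier results of these data known.

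Named genes were the 12 panel genes, the 20 with the largest ratio to the highest other group (at least 50 CPM in members), the 10 with the lowest ratio to the lowest other group (at least 50 CPM there), up to 4 of each list by absolute ratio to the mean with EPCAM, KRT8, KRT18, NKX2-1, NAPSA and SFTPB, the 10 most variable among members, the 5 leading peaks (at least 30 CPM) and the peaks within 50 kb of ALDH1A1 and TM4SF4. Further list members and the peaks with HNF1 letters were named after their values were seen. Some items are not reported here. Alternatives covered the membership cutoffs, doublets, depth, minimum level, pseudocount and scaling (TMM from edgeR 4.0.16 in R 4.3.3).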

Additional observations from a re-analysis of the deposited data

How the results depend on the processing

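No paired analysis was possible because each portion has 1 library of each kind and no comparison came from a test. Membership moved from 1186 (95th percentile scale) to 1397 nuclei (1.5 times the second value), and 908 were found by TM4SF4 alone against 1325 by ALDH1A1 alone. Of 391 named-gene results under all alternatives, 521 of 4301 values moved, as did 80 of 418 values of the 38 peak results. None reversed, but only a ratio of at least 2-fold whose sign changed could count as reversed. Smaller ratios could not enter that count.

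Counts of calls depended on the minimum level and the pseudocount. Without a minimum, 1486 genes were higher, 2628 lower and 665 above every other group, of 30172, and with a 4 times higher minimum 452 were higher, 807 lower, 170 above and 115 below every other group, of 8186. Without the minimum 12601 peaks were higher and 5165 above every other group, of 158342, and with the higher minimum 2406 were higher, 6526 lower, 613 above and 1999 below every other group, of 30031. A pseudocount of 5 CPM left 87 genes below every other group, and among peaks 4174 higher, 8182 lower, 1673 above and 627 below every other group. With 0.1 CPM added, 9995 peaks were below every other group. Median-of-ratios scaling gave 11546 higher peaks and 4233 above every other group, and it moved the median peak from a log2 ratio of −0.32 to −0.08 (TMM −0.11), against −0.13 to −0.06 for the median gene under TMM.

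At a median of 9110 UMIs, 11.2% of the members held no TM4SF4 UMI, which limits statements on single nuclei. The part of depth in this share was not tested. With the minimum on the other 5 groups alone, 213 genes and 1280 peaks were above every other group, and the CTCF share in these peaks was 0.918 of that in all peaks, against 0.527. Of 92 chromosome values 28 moved by over 0.1. GENCODE v44 starts, an alternative chosen after seeing the data, gave 9 of 14 leading genes above every other group at the start and 3 below among the lowest, against 11 of 16 and 3.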
